A study of Mus musculus with 4 samples.

Results

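Transcript levels of genes that drive the G2 phase and mitosis were compared in mouse fibroblasts exposed to etoposide, with or without p63. The set held 36 genes: cyclins and regulators of the kinase CDK1, mitotic kinases, kinetochore and spindle checkpoint genes, spindle and cytokinesis genes, and their transcription factors. Each was represented by a probe set annotated with that gene symbol alone, the brightest on average where there were several. Of the 36 genes, 35 were measured in this way, each by 1 probe set, among 19938 genes in all, and Ccnb1 was not analysed here. All 35 read above the brightness filter on all 4 arrays. The filter is a log2 signal of 5.87, the median of all values of the probe sets with 1 symbol, and 10698 genes reached it on at least 1 array.

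The cells were embryonic fibroblasts prepared from C57BL/6 mice at E13.5. All 4 samples lacked BAX and BAK, the effectors that open the outer mitochondrial membrane in apoptosis, and all were SV40-transformed, which brings in a large T protein that inactivates p53 and retinoblastoma proteins. They had been transduced with retrovirus encoding either GFP, as control, or p63, a relative of p53. Each line was mock-treated or given etoposide for 6 h. Etoposide traps topoisomerase II on cleaved DNA, and its dose is 10 µg/mL in one label and the same number per microlitre in another. The isoform of p63, and whether a line was clonal, are not stated in the labels. The series' design text lists etoposide-treated GFP cells in duplicate and leaves out etoposide-treated p63 cells, and the label of each sample was followed. Each of the 4 conditions was measured on 1 Affymetrix Mouse Gene ST array, so differences are given by size, with no test and no replicate error, and the number of arrays limits their precision. Values are RMA signals on the log2 scale, where a difference of 1 is 2-fold, and a gene is called when its difference reaches 1 in size.

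Entry into mitosis is driven by CDK1 bound to cyclin A or cyclin B. CDC25 phosphatases switch the kinase on, and the anaphase-promoting complex (APC/C) ends mitosis by having cyclin B degraded. Most genes of this programme are transcribed late in the cell cycle. Many of their promoters carry a cell cycle genes homology region (CHR), bound by the repressor complex DREAM in resting or arrested cells and by B-MYB and FOXM1 complexes in cycling cells, together with CCAAT boxes, which NF-Y binds. After DNA damage, p53 lowers these transcripts through the CDK inhibitor p21 and DREAM.

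Markers and array quality were examined first. Trp63 read 4.87 (mock) and 5.59 (etoposide) with GFP, against 8.75 and 9.29 with p63. Of 14 fibroblast markers, 8 read above the filter on all arrays, with Vim at 12.1 to 12.8, and Pdgfra, Thy1, Dcn, Lum and Fap stayed below it on all arrays. The log2 of the summed signal was 14.16 to 14.53 for the fibroblast list and 7.44 to 8.85 for the 6 lists of other cell types. The 8 endothelial markers were all below the filter on all arrays, as were 6 of 8 simple epithelial, 6 of 7 haematopoietic, 3 of 7 skeletal muscle, 5 of 7 adipocyte and 5 of 7 neural markers. Among them, Acta1 was higher in p63 cells (7.31 and 7.26) than in GFP cells (6.04 and 6.51), and Cd68 was below the filter on the array of mock-treated p63 cells and at 6.05 to 6.87 on the others. That array stood at least 1 from each of the others, while those lay within 0.5 of one another, for 78 genes, against 1 to 22 genes for the other arrays, and this held for 0 of the mitotic genes. The part of these markers and of that array in the differences below was not tested.

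After 6 h of etoposide most mitotic genes read below mock in both lines. In GFP cells 34 of 35 stood below their mock value, against 58.8% of all genes, and in p63 cells 29 did, against 40.4%. The genes called lower numbered 12 in GFP cells, where 2.12% of all 10698 genes were so called, and 5 in p63 cells, against 1.33%. The 5 genes were called in both lines, against 0.608% of all genes: Nusap1, Prc1, Cenpf, Aurka and Aspm. No mitotic gene was called higher in either line, while 3.52% of all genes with GFP and 6.28% with p63 were, and 2.57% were higher in both. The median difference of the 35 was -0.81 with GFP and -0.62 with p63, and that of all genes was -0.08 and 0.10. Relative to all genes the medians were thus nearly equal, at -0.73 and -0.72. This near equality rests on the filter. Without it the medians of all genes were 0.04 with GFP and -0.03 with p63, and those of the 35 were unchanged. In bulk samples such as these, fewer cells in G2 and mitosis and less of each mRNA per cell cannot be told apart.

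For 24 of the 35 genes both etoposide arrays read below both mock arrays, whichever virus the cells carried, against 22.1% of all genes. A level below mock in both lines was seen for 29 of 35 genes, against 31.1% of all genes. The order mock-treated GFP, mock-treated p63, etoposide-treated GFP, etoposide-treated p63, from high to low, was the most frequent, with 14 genes. The share of all genes with this order was not taken, so whether the order is more frequent among the members is not known. Across the 35 genes the etoposide differences in the lines, which share no array, correlated at 0.86 (Pearson) and 0.82 (Spearman), against 0.63 and 0.52 over all genes kept. These points are genes measured on the same 4 arrays, and genes are not independent replicates. The SD of the difference between the lines was 0.33 over the 35 genes and 0.45 over all genes.

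**Figure D1:**
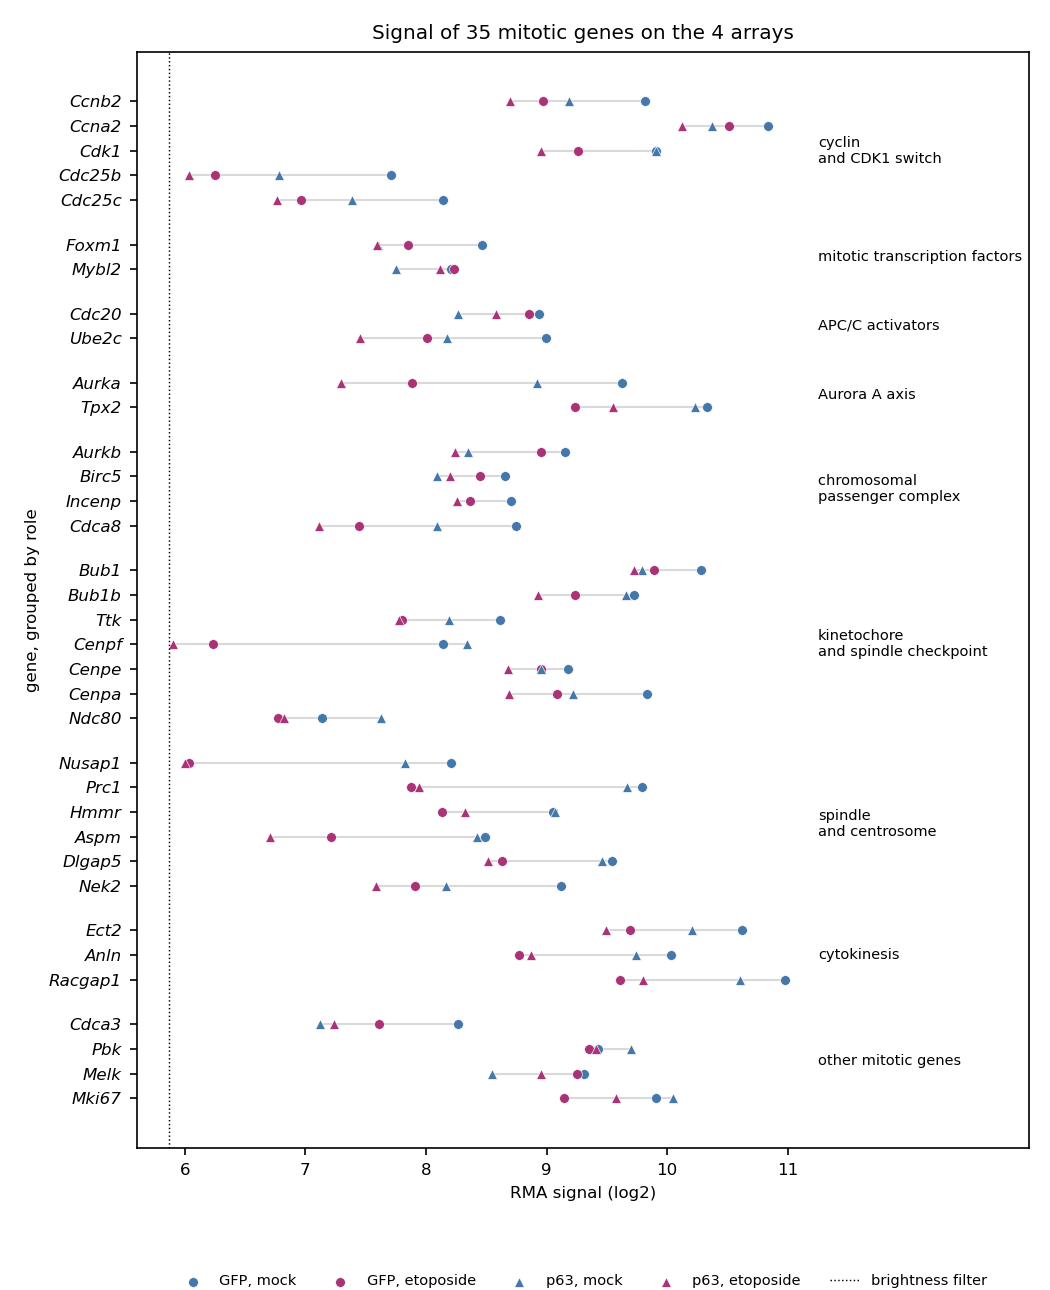
RMA signal (log2) of the 35 mitotic genes, grouped by role, with 1 point per array: circles for GFP cells, triangles for p63 cells, blue for mock and purple for etoposide; the dotted line is the filter at 5.87. For 24 genes both purple points lie left of both blue points, and Cenpf and Nusap1 come closest to the filter, at 5.90 and 6.00 in etoposide-treated p63 cells.

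**Figure D2:**
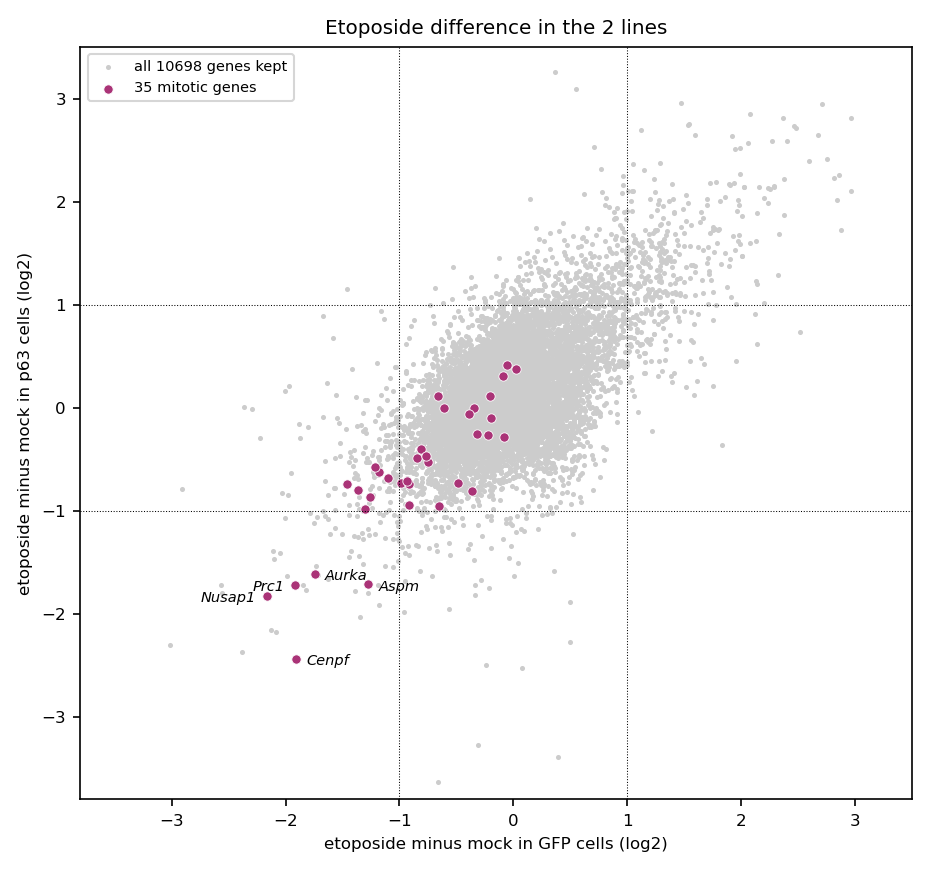
Etoposide minus mock difference (log2) in GFP cells (horizontal) and p63 cells (vertical), with the 35 mitotic genes in purple over all 10698 genes kept in grey; dotted lines mark a difference of 1 in either direction. The 5 labelled genes are lower by at least 1 in both lines, and no purple point lies above 0.41 on either axis.

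The promoters are shown because most members, 29 of 35, were below mock in both lines. RefSeq promoter windows (GRCm38.p6), from 250 bases before the transcription start to 50 after it, were found for 28 of the 36 genes. In 60.4% of all promoters the start used was the RefSeq gene start, so positions depend on the start chosen. Where a gene has several windows, a motif in any of them was counted. Those of Aurkb, Ccna2, Cdc25c, Dlgap5, Foxm1, Incenp, Pbk and Tpx2 were not used here. A CHR element, searched as TTTGAA or TTCGAA on both strands, was present for 21 of 28 members (75%). The share was 15.9% of the 8613 genes kept on the array that have a window and 21.7% of all 27025 genes with one. At least 2 CCAAT boxes, on either strand, were present in 17 of 28 (60.7%), against 16.9% and 13.3%. Both together were present in 15 of 28 (53.6%), against 2.72% and 2.68%. A B-MYB sequence, searched as AACNG on both strands, occurred in 92.9% of the members and in 80.4% and 82.4% of the others. Matches of different motifs were counted separately and may overlap. They describe the letters of the windows and not binding.

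The upstream 120 bases of 4 members with both elements follow, from position -120 to -1 before the start. They are Cdk1 at chr10:69352913-69353032 (minus strand), Cdc20 at chr4:118437344-118437463 (minus strand), Ube2c at chr2:164769809-164769928 (plus strand) and Ccnb2 at chr9:70421555-70421674 (minus strand), and capitals mark the CHR elements (TTTGAA, or TTCAAA where it lies on the other strand) and the CCAAT boxes (CCAAT, or ATTGG on the other strand).
Cdk1: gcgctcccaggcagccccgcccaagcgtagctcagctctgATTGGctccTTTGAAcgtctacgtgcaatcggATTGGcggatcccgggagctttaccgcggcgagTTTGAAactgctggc
Cdc20: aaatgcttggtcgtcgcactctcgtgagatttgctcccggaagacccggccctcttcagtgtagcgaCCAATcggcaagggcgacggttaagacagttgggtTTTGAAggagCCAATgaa
Ube2c: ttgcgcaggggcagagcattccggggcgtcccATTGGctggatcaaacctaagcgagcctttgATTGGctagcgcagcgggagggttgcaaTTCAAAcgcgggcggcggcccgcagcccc
Ccnb2: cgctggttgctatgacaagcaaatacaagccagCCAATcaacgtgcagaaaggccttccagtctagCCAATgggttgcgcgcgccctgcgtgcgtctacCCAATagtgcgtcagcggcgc

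Cdk1 holds 2 CHR elements here, at -71 and -15, each following an inverted CCAAT box, at -80 and -48. Cdc20 has its element at -18 between boxes at -53 and -8, and Ube2c has it inverted at -29, after inverted boxes at -88 and -57. Ccnb2 shows 3 boxes on 1 strand, at -87, -54 and -21, and its nearest CHR element lies just past the start, at position 5. The signals of these 4 genes differed: in GFP cells Cdk1, Ube2c and Ccnb2 stood at -0.65, -0.98 and -0.84 after etoposide, and Cdc20 at -0.09.

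For most members the CHR element lay at or just after the start. In 20 of 28 (71.4%) it began between 30 bases before and 50 after it, against 3.59% of genes kept on the array and 4.79% of all. That window was set after the positions in the members had been seen. With the 250 upstream bases alone, a CHR element was found in 8 of 28 members (28.6%), against 14.1% and 19.6%. A pair of CCAAT boxes on the same strand whose first bases lay 30 to 36 apart, a spacing also noticed first in the members, was found in 8 of 28 (28.6%), against 2.76% and 1.45%.

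The 30 bases around the CHR element are given for 4 of the 5 genes called lower in both lines, and for Racgap1, Hmmr, Ccnb2 and Cenpa as examples from cytokinesis, the spindle, the cyclins and the centromere. They are Cenpf at chr1:189688067-189688096 (minus strand), Prc1 at chr7:80294434-80294463 (plus strand), Aurka at chr2:172370521-172370550 (minus strand), Aspm at chr1:139454767-139454796 (plus strand), Racgap1 at chr15:99651634-99651663 (minus strand), Hmmr at chr11:40733412-40733441 (minus strand), Ccnb2 at chr9:70421533-70421562 (minus strand) and Cenpa at chr5:30666890-30666919 (plus strand). Capitals mark the element.
Cenpf: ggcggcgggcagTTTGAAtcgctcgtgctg
Prc1: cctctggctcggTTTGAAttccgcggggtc
Aurka: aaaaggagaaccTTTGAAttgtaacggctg
Aspm: ggaggcgcgataTTTGAAccgagcaaaagc
Racgap1: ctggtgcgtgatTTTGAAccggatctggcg
Hmmr: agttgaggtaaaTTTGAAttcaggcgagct
Ccnb2: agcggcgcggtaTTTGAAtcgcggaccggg
Cenpa: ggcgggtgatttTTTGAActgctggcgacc

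The fifth gene called lower in both lines, Nusap1, has neither a CHR element nor a CCAAT box in its window, as is the case for 4 members (14.3%) and 48.9% of genes kept on the array. The other three are Mybl2, Melk and Birc5. The upstream 120 bases of Nusap1 at chr2:119618178-119618297 (plus strand) and Mybl2 at chr2:163054515-163054634 (plus strand) are printed because these genes had the lowest and the highest etoposide difference of the set in GFP cells.
Nusap1: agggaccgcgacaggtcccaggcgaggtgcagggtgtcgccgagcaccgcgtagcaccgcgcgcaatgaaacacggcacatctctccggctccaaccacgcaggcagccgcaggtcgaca
Mybl2: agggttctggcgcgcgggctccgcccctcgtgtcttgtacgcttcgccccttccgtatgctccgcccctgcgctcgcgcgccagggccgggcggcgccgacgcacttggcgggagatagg

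Among the 27 members with both a window and a measured signal, the 21 with a CHR element had median etoposide differences of -0.92 with GFP and -0.74 with p63. The 6 without one had medians of -0.21 and -0.08, with a range from -2.17 (Nusap1) to 0.02 (Mybl2) in GFP cells. Split instead by a CHR element with at least 2 CCAAT boxes, the medians over 15 members were -0.84 and -0.71. Those over the other 12 were -0.85 and -0.73. No such split was made over all genes, and the part of these elements in the differences was not tested. Of the genes called lower in both lines, 3 had the combined pattern and 2 did not.

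**Figure D3:**
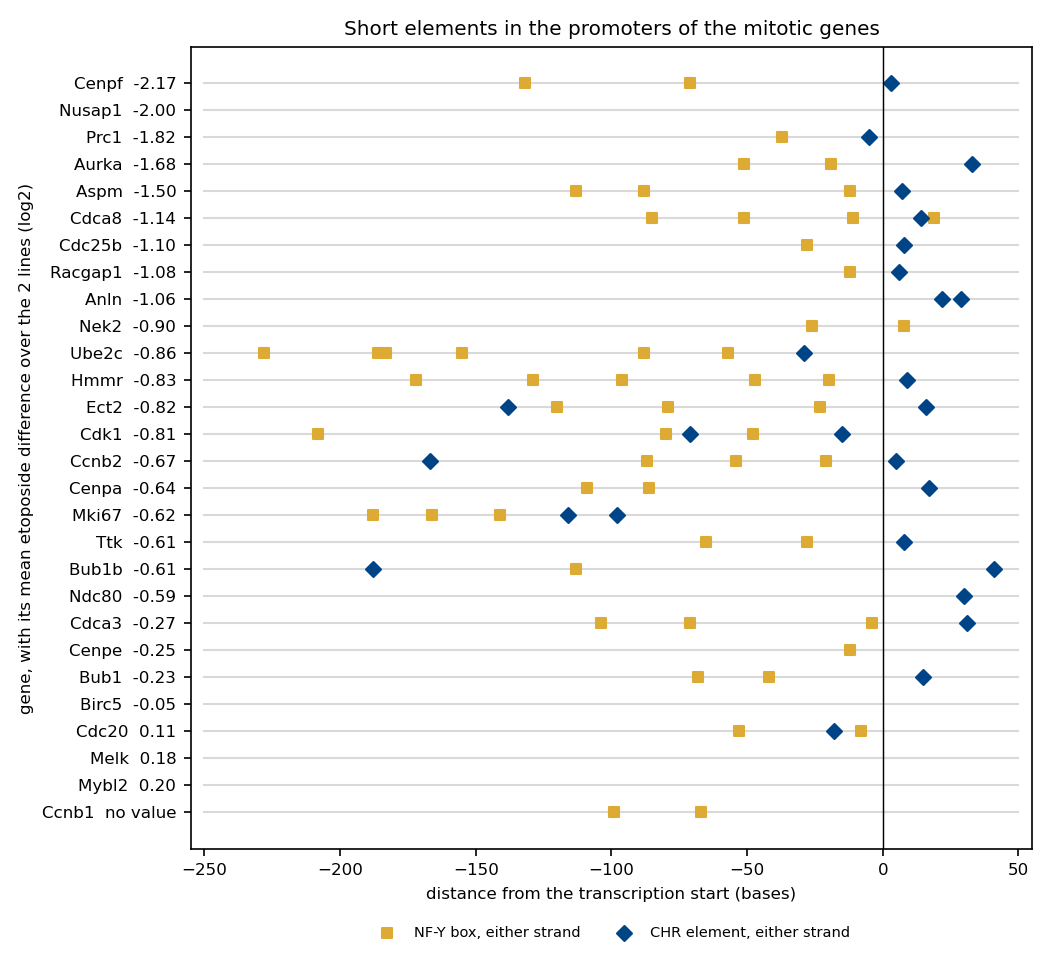
CHR elements (diamonds) and NF-Y boxes, the CCAAT sequence (squares), by distance in bases from the transcription start, with 1 promoter window for each of the 28 genes. Rows are ordered by the mean etoposide difference over the 2 lines, printed beside each name. Diamonds gather between 30 bases before and 50 after the start in 20 genes, and Nusap1, Birc5, Melk and Mybl2 show neither element.

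Of the 5 cyclin and CDK1 switch genes, 2 were called lower after etoposide with GFP and 0 with p63. Cdc25b, a phosphatase that activates CDK1 at the centrosome, read 7.71 and 6.25 in mock- and etoposide-treated GFP cells, against 6.78 and 6.04 with p63. Cdc25c, its relative at mitotic entry, read 8.14 and 6.97 with GFP, against 7.39 and 6.77 with p63. Both were called lower in GFP cells, at -1.46 and -1.18 or 2.75-fold and 2.26-fold, and stood at -0.74 and -0.62 with p63, where the mock level was already lower. Cdk1 itself read 9.91 and 9.26 with GFP, against 9.91 and 8.95 with p63. It had the same mock signal in both lines and stood at -0.65 and -0.96 after etoposide, short of a call in each, although with arrays centred (-1.16) and after cyclic loess (-1.05) it was called in p63 cells. Ccnb2, a B-type cyclin, stood at -0.84 and -0.49. Ccna2, cyclin A, was among the brightest members, at 10.84, 10.51, 10.38 and 10.12 in the order GFP mock, GFP etoposide, p63 mock and p63 etoposide, and had the smallest differences of these genes, -0.32 and -0.26.

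Neither Foxm1 nor Mybl2 was called in either line. Foxm1, a forkhead activator of G2/M genes, read 8.46, 7.85, 7.60 and 7.60 in that order of arrays. It was highest in mock-treated GFP cells, and its etoposide differences were -0.61 and -0.01 (log2). Mybl2, which encodes B-MYB, stood at 0.02 and 0.37, the highest etoposide difference of any member in GFP cells.

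The APC/C pair also differed. Ube2c, the ubiquitin-conjugating enzyme of the APC/C, read 8.99, 8.01, 8.18 and 7.45 with differences of -0.98 and -0.73, just short of a call in GFP cells. Cdc20, the mitotic activator of the APC/C and a target of the spindle checkpoint, read 8.94, 8.85, 8.27 and 8.58. Its etoposide differences were -0.09 and 0.31.

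Aurka, the centrosomal kinase that builds the spindle poles, was among the genes most affected. It read 9.62 and 7.88 with GFP, against 8.92 and 7.30 with p63, so that the etoposide arrays did not overlap the mock arrays. The differences were -1.74 and -1.62, or 3.35-fold and 3.07-fold lower, and the mean of the lines ranked 20 from the lowest of 10698 genes. Tpx2, the microtubule protein that activates Aurora A, went from 10.33 to 9.23 with GFP and from 10.23 to 9.55 with p63, and its differences of -1.10 and -0.68 gave a call in GFP cells, which cyclic loess ended (-0.97).

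The chromosomal passenger complex, which corrects wrong attachments of chromosomes to the spindle, held 1 called gene of 4. Its subunit Borealin, encoded by Cdca8, read 8.74 and 7.45 with GFP, against 8.10 and 7.11 with p63. It was called lower in GFP cells, 2.46-fold, and stood at -0.98 in p63 cells. The catalytic subunit Aurkb differed by -0.20 and -0.10, survivin (Birc5) by -0.21 and 0.11, and the scaffold Incenp by -0.34 and 0.00. The signals of these 3 genes after etoposide were not called in either line.

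Of the kinetochore and checkpoint genes, Cenpf was called in both lines and the others in neither. Cenpf, a large outer kinetochore protein that accumulates in G2, read 8.14 and 6.23 with GFP, against 8.34 and 5.90 with p63. It was 3.75-fold and 5.41-fold lower, with differences of -1.91 and -2.44, and its mean ranked 4 from the lowest of all genes. Its relative in name only, the kinetochore kinesin Cenpe, stood at -0.22 and -0.27. Cenpa, the histone H3 variant that marks centromeres, stood at -0.75 and -0.53.

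Among the checkpoint kinases, Ttk, the apical kinase MPS1, stood at -0.81 and -0.41, and Bub1 at -0.39 and -0.07. The pseudokinase gene Bub1b, which encodes BUBR1, stood at -0.49 and -0.73. Ndc80, the microtubule-binding subunit of the outer kinetochore, read 7.14 and 6.77 with GFP, against 7.63 and 6.82 with p63. It was the dimmest mitotic gene in mock-treated GFP cells, and its differences were -0.36 and -0.81. Bub1b, Cenpf, Cenpe and Ndc80 were 4 of the 8 members whose etoposide difference was lower in p63 than in GFP cells.

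All 6 spindle genes had both etoposide arrays below both mock arrays, and 3 were called in both lines. Nusap1, which bundles spindle microtubules near chromatin, read 8.20 and 6.04 with GFP, against 7.83 and 6.00 with p63. The differences of -2.17 and -1.83 are 4.49-fold and 3.55-fold. The etoposide readings in the lines were nearly the same and lay close to the filter of 5.87. Prc1, the crosslinker of the central spindle, read 9.79 and 7.88 with GFP, against 9.66 and 7.94 with p63, with differences of -1.91 and -1.72. Aspm, a spindle pole protein whose human counterpart is mutated in microcephaly, read 8.49 and 7.21 with GFP, against 8.42 and 6.71 with p63. Its differences were -1.27 and -1.72, and its mean ranked 29, while Nusap1 and Prc1 ranked 9 and 11 of 10698.

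Of the other 3 spindle genes, 1 was called. Hmmr, a microtubule-associated protein at spindle poles, stood at -0.92 and -0.74, and Dlgap5, which encodes the spindle assembly factor HURP, at -0.91 and -0.95. Nek2, a kinase that splits centrosomes, read 9.12 and 7.91 with GFP, against 8.17 and 7.59 with p63. It was called lower in GFP cells, at -1.21, and stood at -0.58 with p63, and its mock signal was lower in p63 cells.

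The 3 cytokinesis genes were among the brightest members, and 2 were called in GFP cells. Racgap1, a subunit of centralspindlin, read 10.98 and 9.61 with GFP, against 10.60 and 9.80 with p63. Anln, the contractile ring scaffold anillin, read 10.03 and 8.77 with GFP, against 9.74 and 8.87 with p63. Their differences were -1.37 and -1.26 with GFP, against -0.80 and -0.87 with p63. Ect2, the exchange factor that activates RhoA for furrowing, stood at -0.93 and -0.71.

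None of the remaining 4 genes was called in either line. The proliferation marker Mki67 stood at -0.77 and -0.47. Pbk, a mitotic kinase, stood at -0.08 and -0.29, Melk, another kinase, at -0.06 and 0.41, and Cdca3, a trigger of WEE1 degradation, at -0.66 and 0.11. Melk had the highest etoposide difference of the set in p63 cells. Its mock signal there, 8.54, was the lowest of its 4 readings.

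Partner genes outside the set were examined in 8 lists with 134 genes, of which 130 were kept. In all, 5 were lower and 7 higher in both lines (all genes: 0.608% and 2.57%), and the medians were -0.19 with GFP and 0.02 with p63, against -0.08 and 0.10 for all genes. Other spindle and cytokinesis genes came closest to the set, with medians of -0.68 and -0.40 over 18 genes and 3 lower and 1 higher in both lines. The lower ones were the mitotic kinesin Kif18a (-1.99 and -1.63), Depdc1a (-2.01 and -1.07) and Pimreg (-1.12 and -1.01). The higher one, Psrc1, a p53-inducible microtubule regulator, stood at 1.41 and 1.89.

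Other structural parts of mitosis held few called genes. APC/C subunits, inhibitors and separase had medians of -0.22 and -0.17, with 0 of 18 called in both lines, Fzr1, the G1 activator of the APC/C, at -0.90 and -0.81, and the separase gene Espl1 at -1.02 and -0.54. Cohesin, condensin and shugoshin genes had medians of -0.24 and -0.12, with 0 of 17 called in either line, Sgo2a, a protector of centromeric cohesion, at -0.97 and -0.78, and the condensin gene Ncapd2 at -0.89 and -0.58. Of 20 other outer kinetochore and checkpoint genes 1 was lower in both lines, Knl1, the scaffold that recruits the checkpoint (-1.14 and -1.05), and the medians were -0.23 and 0.02. Of 15 inner centromere genes 1 was lower in both lines, Cenpl (-1.61 and -1.23), and the medians were -0.24 and 0.07. Cenpl was dim, and once its readings under the filter were raised to 5.87 it was at -0.89 and -0.71, which ends the call, while after cyclic loess Knl1 (-0.98) and Pimreg (-0.96) were no longer called in GFP cells.

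The p53-induced list had the highest medians. Of 9 p53-induced G2 arrest genes kept, 4 passed 1 upwards in both lines and 0 downwards in either, with medians of 0.51 and 1.43: Btg2 (2.75 and 2.41), Rprm, which encodes the G2 arrest mediator Reprimo (1.32 and 1.51), the phosphatase gene Ppm1d (1.36 and 1.43) and Ccng1, cyclin G1 (1.14 and 1.45). Cdkn1a was not analysed here. The 13 other CDK1 regulators had medians of -0.17 and 0.06, and Gtse1, a p53-inducible protein that restrains p53 in G2, was higher in both lines (1.49 and 1.93). The other genes of that list called in 1 line, named here after their values were seen, were Bora, an activator of the mitotic kinase PLK1 (-1.41 and -0.57), and the phosphatase gene Cdc25a (0.03 and 1.08). The 20 genes for DREAM, MuvB, E2F and NF-Y subunits had medians of -0.01 and 0.30, and 0 were lower by 1 in either line, while 1 was higher with GFP (Nfyb) and 3 with p63 (Nfyb and, named after their values were seen, E2f7 and E2f8). Nfyb, which encodes a subunit of NF-Y, was higher in both, from 8.49 to 10.11 and from 8.63 to 10.19, a 1.62 and 1.56 difference in log2.

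**Figure D4:**
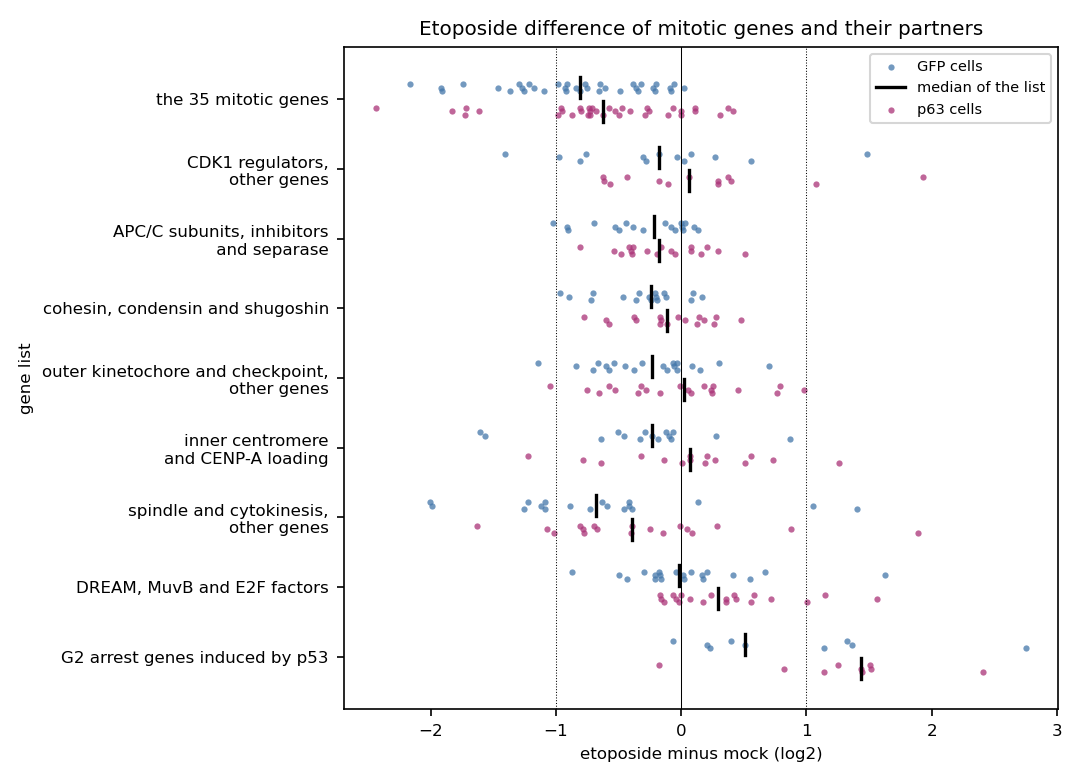
Etoposide minus mock difference (log2) of each gene in GFP cells (blue) and p63 cells (purple), for the 35 mitotic genes and the 8 lists of partners, with black bars at each median. The mitotic genes have the lowest medians, -0.81 and -0.62, and the p53-induced G2 arrest genes the highest, 0.51 and 1.43.

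The comparison of p63 with GFP cells asks whether the line with p63 carried less of these transcripts before or after damage. In mock-treated cells 29 of 35 genes were lower with p63, against 63.9% of all genes, with a median of -0.45 against -0.14 for all genes. In etoposide-treated cells 27 of 35 were lower, against 45.5%, with a median of -0.24 against 0.02. The differences were small: 1 gene was called, Cdca3 in mock-treated cells, where 3.76% of all genes were called lower and 2.42% higher, and 0 of 35 were called in etoposide-treated cells, where 0.514% were called lower and 1.38% higher. With arrays centred, or after cyclic loess, the median in mock-treated cells was -0.24 with 24 of 35 genes below 0. The median of all genes was then 0.07 with centring and -0.03 after loess. Centring shifts every gene of an array alike, so it cannot change the gap between the members and all genes. In the deposited values 25 of 35 genes were below 0 under both treatments, against 34.2% of all genes. Both comparisons use the same pair of lines, so p63 and any other difference between those lines cannot be told apart.

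Cdca3 read 8.27 and 7.61 in mock- and etoposide-treated GFP cells, against 7.12 and 7.23 with p63. Its differences with p63 were -1.15 (mock) and -0.38 (etoposide). Both p63 arrays lay below both GFP arrays, as they did for other members, Aurkb and Foxm1 among them. The share of all genes with such an order was not taken. With arrays centred on their medians the mock difference was -0.94, and after cyclic loess it was -0.97, so neither reached a call. Aurkb read 9.15 and 8.96 with GFP, against 8.35 and 8.24 with p63. Its differences with p63 were -0.81 and -0.71, and the second was the lowest of the set in etoposide-treated cells. Ube2c stood at -0.82 and -0.56 and Aurka at -0.71 and -0.58.

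Other genes had a larger p63 difference in mock-treated cells. Nek2 stood at -0.95 (mock) and -0.32 (etoposide), Cdc25b at -0.93 and -0.21, and Foxm1 at -0.86 and -0.26. After etoposide these 3 genes lay closer together in the lines than in mock. Ndc80 was the opposite case, with a p63 difference of 0.50 (mock) and 0.05 (etoposide), and Mki67 was higher under both treatments, by 0.14 and 0.44. In etoposide-treated cells the 6 spindle genes ranged from -0.51 (Aspm) to 0.19 (Hmmr), with Nek2 at -0.32, Dlgap5 at -0.12, Nusap1 at -0.03 and Prc1 at 0.06.

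**Figure D5:**
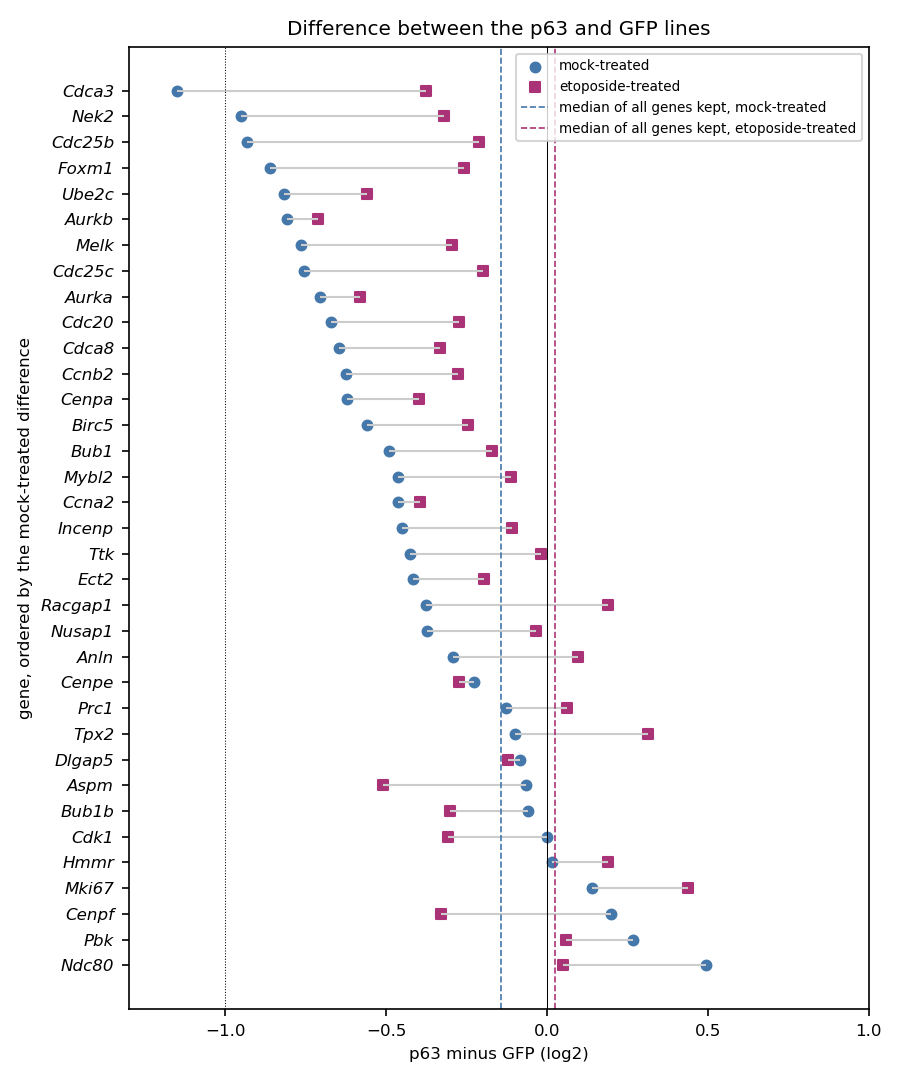
p63 minus GFP difference (log2) of each mitotic gene in mock-treated (circles) and etoposide-treated cells (squares), ordered by the mock difference; dashed lines mark the medians of all genes kept, -0.14 and 0.02, and the dotted line a difference of -1. Only Cdca3 passes -1, in mock-treated cells, and its etoposide square stands at -0.38.

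The difference of the etoposide differences, p63 cells minus GFP cells, is the same number as the change of the p63 difference between treatments. It was above 0 for 27 of 35 genes, against 69.3% of all genes, with a median of 0.31 against 0.20 for all genes. No gene of the set reached 1, where 2.84% of all genes were higher and 1.09% lower. The highest values were those of Cdca3 (0.77), Cdc25b (0.72) and Nek2 (0.63), and the lowest those of Cenpf (-0.53), Ndc80 (-0.44) and Aspm (-0.44). With arrays centred the median was 0.020 and 16 of 35 genes were below 0, and after cyclic loess it was 0.0598 with 15 below 0. The medians of all genes were then -0.10 and 0.04. Centring moves this difference by the same amount for every gene, so it cannot change the gap to all genes. The zero point depends on the scaling, so no direction of this difference is given for the set.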

How the data were processed

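RNA of the 4 samples was extracted with Trizol and amplified from small inputs with a NuGEN whole-transcriptome kit, per the labels' protocols. The authors deposited log2 signals. RMA and Affymetrix Expression Console are named, without versions, per the submitters' processing notes, and the base of the logarithm was taken from the values, which run from 1.27 to 14.4. RMA equalises the intensity distributions of arrays, so a shift shared by most genes is largely removed before deposit. The table held 35512 probe sets, and a platform annotation of GEO named 21789 with 1 symbol and 1621 with several, and 12102 are unnamed here. Older symbols in lists were updated through RefSeq (GRCm38.p6). Samples were grouped by virus and treatment, 1 array each, and the 4 pairwise differences and their difference were taken. No test was made, as each group has 1 array. All 36 members, the other genes past 1 in the same direction in both lines, and the largest in lists with none were to be named. The members and lists were chosen with earlier results of these data known. Computation used Python 3.11.15, pandas 2.3.3 and limma 3.58.1 (cyclic loess), and was tested on simulated data.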

Additional observations from a re-analysis of the deposited data

Results flagged for a closer look

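Some members differed in direction between the groups, on 1 array each. None of these differences was tested. After etoposide 5 genes were below mock in GFP cells and above it in p63 cells: Birc5 (-0.21 and 0.11), Cdc20 (-0.09 and 0.31), Cdca3 (-0.66 and 0.11), Incenp (-0.34 and 0.0005) and Melk (-0.06 and 0.41). The gaps between the lines were 0.31, 0.40, 0.77, 0.34 and 0.47. With p63 against GFP, 4 genes were lower in mock-treated and higher in etoposide-treated cells, Anln, Prc1, Racgap1 and Tpx2, with gaps of 0.39, 0.19, 0.56 and 0.42. Cdk1 and Cenpf went the opposite way, with gaps of -0.31 and -0.53. All 11 gaps are under the size of 1 used for a call.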

How the results depend on the processing

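The 5 genes lower in both lines (Nusap1, Prc1, Cenpf, Aurka and Aspm) were called under all 7 alternatives, and no called difference changed sign. Only centring and cyclic loess recompute the values of members, so the other settings could not change the sign of a member's difference. Results for the members kept their side without a filter, with a filter at the 75th percentile (7.82), with probe sets of a gene combined by their median, and with dim readings raised to the filter. Each member has 1 probe set and reads above the main filter on all arrays. Its values therefore could not change without a filter, with the median of probe sets or with raised readings. The stricter filter can only drop members, and the looser threshold can only add calls. At a 1.5-fold threshold 23 members were lower in GFP cells, 18 in p63 cells and 16 in both. Of all 10698 genes, 1014, 588 and 269 (2.51%) were so called. With p63 against GFP, 13 members were lower in mock-treated cells and 1 was past this threshold in etoposide-treated cells. No count over all genes was taken for these. Among partner genes 19 were lower and 11 higher in both lines. With arrays centred on their medians, 10 members were lower in p63 cells, while all genes so called went from 142 to 263 of 10698. Lower with p63 in mock-treated cells were 0 members. Medians with centring were -0.82 for etoposide in p63 cells, -0.24 for p63 in mock-treated cells and 0.020 for the difference of differences. Those of all genes were -0.10, 0.07 and -0.10 in the same order. After cyclic loess 8 members were lower in p63 cells, where 164 of 10697 genes were so called. Lower with p63 in mock-treated cells were 0 members, and 3 partner genes were lower in both lines. Medians after loess were -0.65 for etoposide in GFP cells, -0.24 for p63 in mock-treated cells and 0.0598 for the difference of differences. Those of all genes were 0.01, -0.03 and 0.04 in the same order. In p63 cells the added calls were Cdk1 (-1.16), Cdca8 (-1.18), Ndc80 (-1.004), Dlgap5 (-1.15) and Anln (-1.07) with centring, and Cdk1 (-1.05), Cdca8 (-1.08) and Dlgap5 (-1.05) after loess, which ended the call of Tpx2 in GFP cells (-0.97). Cdca3 with p63 lost its call under both (-0.94 and -0.97). No fit paired by replicate number was possible, because each group has 1 array and the groups share only 1 replicate number. The etoposide differences were taken within each line. An additive fit over the 4 arrays was not made, and no replicate could be left out. Signal over background limits Cenpf, Nusap1 and Cdc25b most, at 5.90, 6.00 and 6.04 on their dimmest array.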
